A study of Mus musculus with 18 samples.

Results

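The 6 genes described here serve antigen presentation on major histocompatibility complex (MHC) class II, and were followed in mouse kidney over the first postnatal weeks, in wild-type (WT) mice and in mice lacking Ecm1 (KO). They were taken by symbol from the deposited gene table, which holds 22063 genes, and all 6 were found: H2-Aa, H2-Ab1, H2-Eb1, H2-DMa, Cd74 and Ciita. All 6 also passed the filter on low counts, which left 14774 genes for testing. RNA was extracted from kidney tissue of WT and KO mice at 1, 2 and 4 weeks of age, with 3 libraries in each of the 6 groups. Ecm1 encodes a secreted protein of the extracellular matrix, and the title of the study concerns its supply by mesangial cells, the supporting cells between the capillaries of the glomerulus. Neither the strain, the sex, the part of Ecm1 that was removed nor the number of animals behind the libraries is given in the sources used. The p-values below therefore reflect the spread among libraries alone, and that spread may be technical in part or, in groups of 1 sex, in whole. By the Y-linked transcripts given below, WT at 1 week, WT at 2 weeks and KO at 4 weeks held both sexes, so more than 1 animal.

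MHC class II molecules are pairs of an alpha and a beta chain that carry peptides from the endosomal pathway to the cell surface, where CD4+ T cells read them. The invariant chain Cd74 fills the groove of the new molecule and steers it to the endosome, where proteases trim it and the editor H2-DM exchanges the remaining fragment for a peptide. Ciita does not bind DNA itself but is drawn to promoters by factors sitting on the X and Y boxes, and it switches the whole gene set on. In the kidney, class II protein is best known on dendritic cells and macrophages of the interstitium, and interferon gamma can induce it on tubular and endothelial cells.

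The promoters of H2-Aa, H2-Eb1 and the H2-DM beta chain gene H2-DMb1 are shown because they carry 1 or both of the X and Y boxes, and that of H2-DMa because its RNA followed a course of its own. Each line holds the 150 bases before a start of the gene's RefSeq entry, 5′ to 3′ on the gene's strand, from RefSeq (GRCm38.p6). The H2-DMa window lies inside the gene's longer GENCODE span given below. It also lies just upstream of the 5′ end, at 34122634, of Brd2 on the opposite strand. The capitals mark matches to 3 motifs, searched on both strands: the X box (AG, any 2 bases, AC, any base, then GATG), the Y box GATTGG, which reads CCAATC on the other strand, and the cyclic AMP response element TGACGTCA. The spans are chr17:34287824-34287973 (minus strand) for H2-Aa, chr17:34305717-34305866 for H2-Eb1, chr17:34153041-34153190 for H2-DMb1 and chr17:34122682-34122831 for H2-DMa, the last 3 on the plus strand.
H2-Aa: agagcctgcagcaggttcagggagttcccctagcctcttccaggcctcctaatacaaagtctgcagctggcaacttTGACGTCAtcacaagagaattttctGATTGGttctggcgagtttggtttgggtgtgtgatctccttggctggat
H2-Eb1: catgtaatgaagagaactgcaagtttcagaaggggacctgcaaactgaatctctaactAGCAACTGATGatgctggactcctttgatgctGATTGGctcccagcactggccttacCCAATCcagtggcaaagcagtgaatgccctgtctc
H2-DMb1: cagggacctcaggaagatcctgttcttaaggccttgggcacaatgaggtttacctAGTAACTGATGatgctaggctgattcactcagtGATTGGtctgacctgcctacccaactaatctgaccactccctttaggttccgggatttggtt
H2-DMa: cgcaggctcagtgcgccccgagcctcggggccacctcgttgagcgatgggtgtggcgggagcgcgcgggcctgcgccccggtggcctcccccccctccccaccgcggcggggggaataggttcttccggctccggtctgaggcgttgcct
Counting back from the base before the start as -1, H2-Eb1 had an X box from -92 to -82 and a Y box 21 bases downstream of it, and H2-DMb1 had the same pair with 22 bases between them. H2-Aa had a Y box with the cyclic AMP response element 17 bases upstream of it. It had no match to the X box as spelled above, a fixed pattern that misses variants of the box. Over the 250 bases before the start, 0.816% of the 32851 promoter windows in the RefSeq table held the X box, 14.6% the Y box, 1.55% the cyclic AMP response element and 0.119% both the X and the Y box. The table has 2 windows for H2-DMa: the one printed held none of the 3 motifs, and the other held a Y box from -199 to -194. Other class II genes were searched but are not printed: H2-DMb2 and H2-Ob held a Y box, and H2-Eb2 held the X and the Y box, 21 bases apart. A match describes letters only, and its absence from a window says nothing about binding. Whether the motifs bear on the RNA levels was not tested. Promoter windows for H2-Ab1, Cd74 and Ciita were not used here.

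The library totals ran from 14930565 to 21427764 estimated counts. Ecm1 had 301 to 1315 counts in the WT libraries and 0 to 2 in the KO libraries, so the targeted gene matched the labels in all 18. Y-linked transcripts marked 7 of the 18 libraries as female: 2 of WT and all 3 of KO at 1 week, 1 of WT at 2 weeks, and 1 of KO at 4 weeks. The share of counts from mitochondrially encoded genes was 8.8% to 10.1% in libraries of 1 week and 18.4% to 21.7% in those of 4 weeks. At 2 weeks the WT and KO libraries numbered 1 deviated from their group means together across genes (correlation 0.68). Levels are given as CPM (counts scaled to library size, with TMM factors) for comparing libraries, and as FPKM (fragments scaled to gene length and library size) for comparing genes.

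The 4 abundant genes, the chains H2-Aa, H2-Ab1 and H2-Eb1 and the invariant chain Cd74, ended the period 2.06 to 6.80 times higher in WT kidney than they began it. Most of the rise fell between 2 and 4 weeks. H2-DMa and Ciita did not pass the test over the whole period. The rise was seen in KO kidney as well, and the KO and WT libraries overlapped for every one of the 6 genes at 1 and at 2 weeks, where KO lay wholly above WT for 4.39% and 2.41% of all genes.

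**Figure D1:**
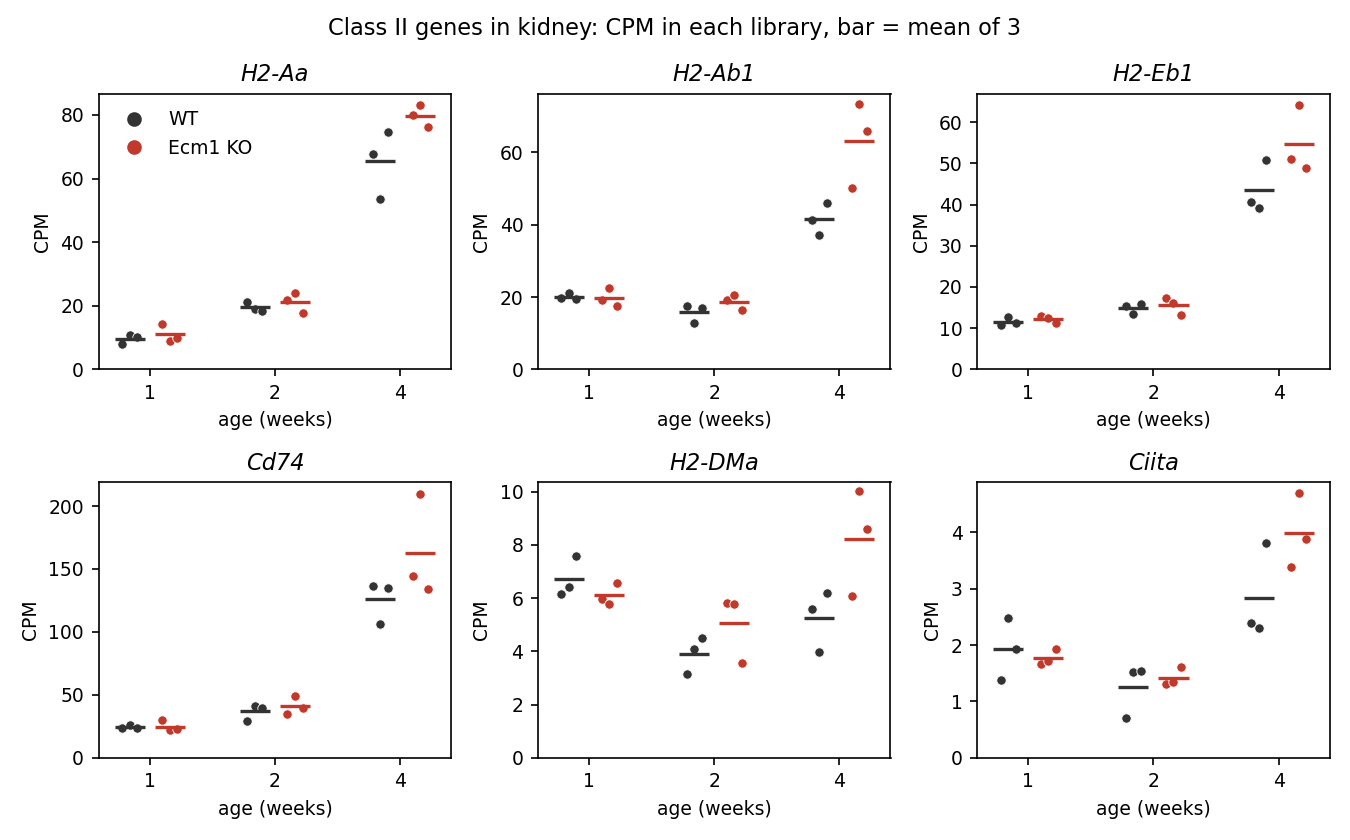
CPM of each class II gene (vertical axis, linear) against age in weeks, with 1 point per library and a bar at the mean of 3, WT dark and Ecm1 KO red. The chains and Cd74 climb at 4 weeks in both genotypes, H2-DMa stands at or below 10.02 CPM throughout, and at 4 weeks the KO points of H2-Aa and H2-Ab1 lie above all WT points.

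H2-Aa encodes the alpha chain of I-A, the class II molecule found in all common mouse strains (ENSMUSG00000036594, chr17:34282744-34287823 in GENCODE M21 on GRCm38, minus strand). In WT kidney it measured 7.97, 10.7 and 10.2 CPM at 1 week, 21.3, 18.9 and 18.4 CPM at 2 weeks, and 67.7, 53.6 and 74.8 CPM at 4 weeks. No 2 ages overlapped. H2-Aa rose by 1.02 ± 0.17 (log2 fold change ± SE) from 1 to 2 weeks (edgeR quasi-likelihood test with Benjamini-Hochberg adjustment, adjusted p = 0.000671) and by 1.74 ± 0.17 from 2 to 4 weeks (adjusted p = 1.24e-06). It was the only one of the 6 genes to rise at both steps in both genotypes under all 18 alternatives run for each step.

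H2-Ab1, the beta chain that pairs with H2-Aa, kept another timetable (ENSMUSG00000073421, chr17:34257689-34269419, plus strand). Its WT libraries of 1 week held 19.6, 21.3 and 19.5 CPM, those of 2 weeks 17.6, 12.8 and 17.1 CPM, and those of 4 weeks 41.3, 37.1 and 46.2 CPM. All 3 WT libraries at 2 weeks were below all 3 at 1 week, but the difference of -0.35 ± 0.16 did not pass the test (edgeR adjusted p = 0.12). It passed in 4 of 18 alternatives: at -0.58 with library totals (edgeR adjusted p = 0.0139), at -0.59 on log2(FPKM + 0.1), and at -0.56 on log2(FPKM + 1) with or without a filter (limma adjusted p = 0.0112, 0.0109 and 0.0148). From 2 to 4 weeks H2-Ab1 rose by 1.39 ± 0.16 (edgeR adjusted p = 4.48e-06), which left it 1.04 ± 0.16 above its 1-week level (edgeR adjusted p = 2.31e-05).

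H2-Eb1, the beta chain of the second class II molecule, I-E, rose late like H2-Ab1 (ENSMUSG00000060586, chr17:34305867-34316674, plus strand). WT libraries held 10.8, 12.6 and 11.2 CPM at 1 week, 15.5, 13.5 and 15.8 CPM at 2 weeks, and 40.6, 39.1 and 50.8 CPM at 4 weeks. The 3 ages did not overlap. The first step of 0.37 ± 0.14 did not pass the test (edgeR adjusted p = 0.0666), and H2-Eb1 rose by 1.54 ± 0.14 in the second (edgeR adjusted p = 6.26e-07). Its alpha partner H2-Ea was not analysed here. The span of H2-Eb1, introns included, overlaps that of the antisense gene Gm20513 over 2204 bases.

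Cd74, the invariant chain, had the highest mean FPKM of the 6 genes in every group (ENSMUSG00000024610, on chromosome 18). WT kidney had 24.1, 26.0 and 23.4 CPM at 1 week, 29.3, 41.3 and 39.9 CPM at 2 weeks, and 136.4, 106.6 and 135.0 CPM at 4 weeks. The ages were again fully separate, with the libraries at 4 weeks standing far above the rest. Cd74 rose by 0.59 ± 0.19 from 1 to 2 weeks (edgeR adjusted p = 0.0311) and by 1.77 ± 0.19 from 2 to 4 weeks (edgeR adjusted p = 2.62e-06). The first of these calls was lost without WT replicate 1, 2 or 3 of 1 week (edgeR adjusted p = 0.0815, 0.0508 and 0.0807) or replicate 2 or 3 of 2 weeks (0.102 and 0.0759), with sex as a covariate (0.0707) and in 5 scaling or FPKM alternatives (0.053 to 0.286).

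H2-DMa, the alpha chain of the peptide editor, went the other way at first (ENSMUSG00000037649, chr17:34119541-34139101, plus strand). Its WT libraries measured 6.14, 6.42 and 7.59 CPM at 1 week, 3.14, 4.08 and 4.49 CPM at 2 weeks, and 5.58, 3.99 and 6.18 CPM at 4 weeks. H2-DMa fell by 0.78 ± 0.24 from 1 to 2 weeks on the log2 scale (edgeR adjusted p = 0.0254) with no overlap between the ages. That call was lost without WT replicate 2 or 3 of 1 week (edgeR adjusted p = 0.0511 and 0.0907), without WT replicate 1 or 2 of 2 weeks (0.0926 and 0.0608), or without both libraries numbered 1 at 2 weeks (0.0795). From 2 to 4 weeks it differed by 0.42 ± 0.24 in WT (edgeR adjusted p = 0.166), and the sign of this step turned with scaling by library totals or on FPKM. The span of H2-DMa, introns included, overlaps that of Brd2 on the opposite strand over 3094 bases. Without known strand, reads from that overlap cannot be told apart.

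Ciita, the master regulator, was the scarcest of the 6, with 12 to 59 counts per library (ENSMUSG00000022504, chr16:10480059-10528418, plus strand). In WT kidney it stood at 1.37, 2.48 and 1.94 CPM at 1 week, 0.711, 1.52 and 1.54 CPM at 2 weeks, and 2.39, 2.30 and 3.82 CPM at 4 weeks. The first 2 ages overlapped, and all libraries at 4 weeks were above those at 2 weeks. Ciita rose by 1.14 ± 0.32 from 2 to 4 weeks (edgeR adjusted p = 0.00744). Scaled by library totals this step was 0.65 (edgeR adjusted p = 0.108), limma on log2(FPKM + 1) gave 0.12 with or without a filter (adjusted p = 0.192 and 0.129), and limma on log2(FPKM + 0.1) gave 0.42 (adjusted p = 0.158). The span of Ciita, introns included, overlaps that of Dexi on the opposite strand over 25888 bases. Part of its reads may belong to Dexi, and whether counted reads are shared was not tested.

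Counted together for WT, 2 of the 6 genes rose and 1 fell from 1 to 2 weeks, where 12.5% of all tested genes rose and 11.1% fell. From 2 to 4 weeks 5 of 6 rose against 23.5% of all genes, and the median change of the 6 was 1.47 beside -0.06 over all genes. Over 1 to 4 weeks 4 of 6 rose against 30.5%, with medians of 1.48 and -0.04. The steps share the libraries at 2 weeks, so they are not independent of each other. Scaling moves these values: by library totals the median of all genes from 1 to 4 weeks shifts to -0.75, and H2-Ab1 is then 0.33 higher (edgeR adjusted p = 0.0702) and H2-DMa 1.07 lower on the log2 scale, the latter called (edgeR adjusted p = 0.00103). The 3 FPKM alternatives gave the same pair of outcomes, H2-Ab1 at 0.32 to 0.33 and not called, and H2-DMa at -1.04 to -0.88 and called by limma. H2-Aa, H2-Eb1 and Cd74 rose from 1 to 4 weeks under all 17 alternatives.

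In KO kidney the calls also lay mostly at the second step. From 1 to 2 weeks H2-Aa rose by 0.94 ± 0.17 (edgeR adjusted p = 0.00154) and Cd74 by 0.73 ± 0.19 (0.0118), 2 of 6 genes against 10.3% of all genes. H2-DMa, which fell here in WT, was at -0.27 ± 0.23 in KO (edgeR adjusted p = 0.457), and whether this step differed between the genotypes was not tested. From 2 to 4 weeks all 6 rose against 18.2% of all genes: Cd74 by 1.98 ± 0.19, H2-Aa by 1.92 ± 0.17, H2-Eb1 by 1.81 ± 0.14, H2-Ab1 by 1.75 ± 0.16, Ciita by 1.48 ± 0.31 and H2-DMa by 0.70 ± 0.24. Their edgeR adjusted p-values ran from 4.95e-07 for H2-Eb1 to 0.0282 for H2-DMa, and no library at 4 weeks overlapped those at 2 weeks for any of the 6, where every KO library was higher at 4 weeks for 21.4% of all genes. The H2-DMa call was lost without KO replicate 3 of 2 weeks (edgeR adjusted p = 0.128) or without KO replicate 2 or 3 of 4 weeks (0.118 and 0.0695), and with only the compared groups in the fit (0.113). It was also lost with library totals, at 0.34 (edgeR adjusted p = 0.25), and in the 3 FPKM alternatives, at 0.30 to 0.36 (limma adjusted p = 0.205 to 0.252), which left 10 of 18 alternatives that called it. Over 1 to 4 weeks 5 of 6 rose against 28.4%, with H2-DMa at 0.43 ± 0.23 (edgeR adjusted p = 0.13), or 0.61 and called without KO replicate 1 of 4 weeks (edgeR adjusted p = 0.0464). The Ciita call over these ages was lost with library totals, at 0.58 (edgeR adjusted p = 0.128), and by limma on log2(FPKM + 0.1) and log2(FPKM + 1), at 0.42 and 0.17 (adjusted p = 0.137 and 0.065). The Cd74 call at the first step was lost without KO replicate 2 of 1 week (edgeR adjusted p = 0.0539) or of 2 weeks (0.0617) and at 0.40 with sex as a covariate (0.272), a step in which KO kidney went from 3 female libraries to 3 male ones. It was also lost with library totals, at 0.52 (edgeR adjusted p = 0.077), and in the 3 FPKM alternatives, at 0.48 to 0.49 (limma adjusted p = 0.0869 to 0.114).

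**Figure D2:**
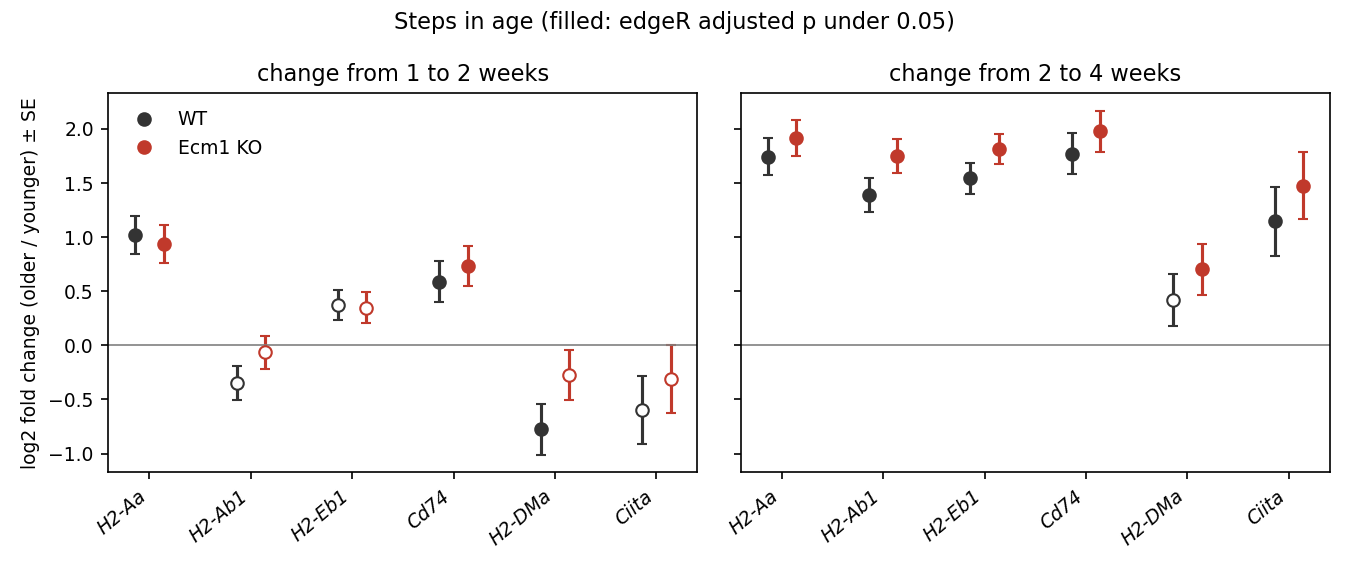
Log2 fold change ± SE (vertical axis) of each gene from 1 to 2 weeks (left) and from 2 to 4 weeks (right), WT dark and Ecm1 KO red, with filled points for an edgeR adjusted p under 0.05. H2-Aa and Cd74 are the filled points above 0 at the first step, and at the second step H2-DMa in WT is the only open point.

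Per length, the order of the genes changed with age. At 1 week WT kidney held 24.0 ± 1.0 FPKM of Cd74 (mean ± SD, n = 3), 20.4 ± 0.70 of H2-Ab1, 10.4 ± 1.4 of H2-Aa, 9.32 ± 0.39 of H2-Eb1, 7.05 ± 0.71 of H2-DMa and 0.462 ± 0.092 of Ciita. Only H2-Aa and H2-Eb1 overlapped among neighbours in that order. By 2 weeks H2-Aa had moved ahead of H2-Ab1. At 4 weeks WT kidney held 74.2 ± 10.3 FPKM of Cd74, 43.4 ± 7.1 of H2-Aa, 25.6 ± 2.7 of H2-Ab1, 21.1 ± 2.2 of H2-Eb1, 3.41 ± 0.65 of H2-DMa and 0.370 ± 0.085 of Ciita. Here H2-Ab1 and H2-Eb1 overlapped, and the other neighbours did not.

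The 2 chains of I-A were thus out of step. The ratio of H2-Aa to H2-Ab1 FPKM within a library was 0.437, 0.539 and 0.563 in WT at 1 week, 1.16 to 1.59 at 2 weeks, and 1.55, 1.74 and 1.76 at 4 weeks, each from lowest to highest. In KO it was 0.613 ± 0.186 at 1 week (SD, n = 3), 1.20 ± 0.05 at 2 weeks and 1.39 ± 0.28 at 4 weeks. All 6 libraries at 1 week were below 1 and all 12 later ones above it, in either genotype. A ratio within a library does not depend on the scaling between libraries. H2-DMa fell behind the chains: its FPKM per H2-Ab1 FPKM was 0.347 ± 0.046 at 1 week, 0.261 ± 0.075 at 2 weeks and 0.132 ± 0.013 at 4 weeks in WT (SD, n = 3), and 0.327 ± 0.058, 0.274 ± 0.052 and 0.136 ± 0.0075 in KO. The libraries at 4 weeks lay below all earlier ones. These ratios were formed after the levels were seen and are given as descriptions.

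**Figure D3:**
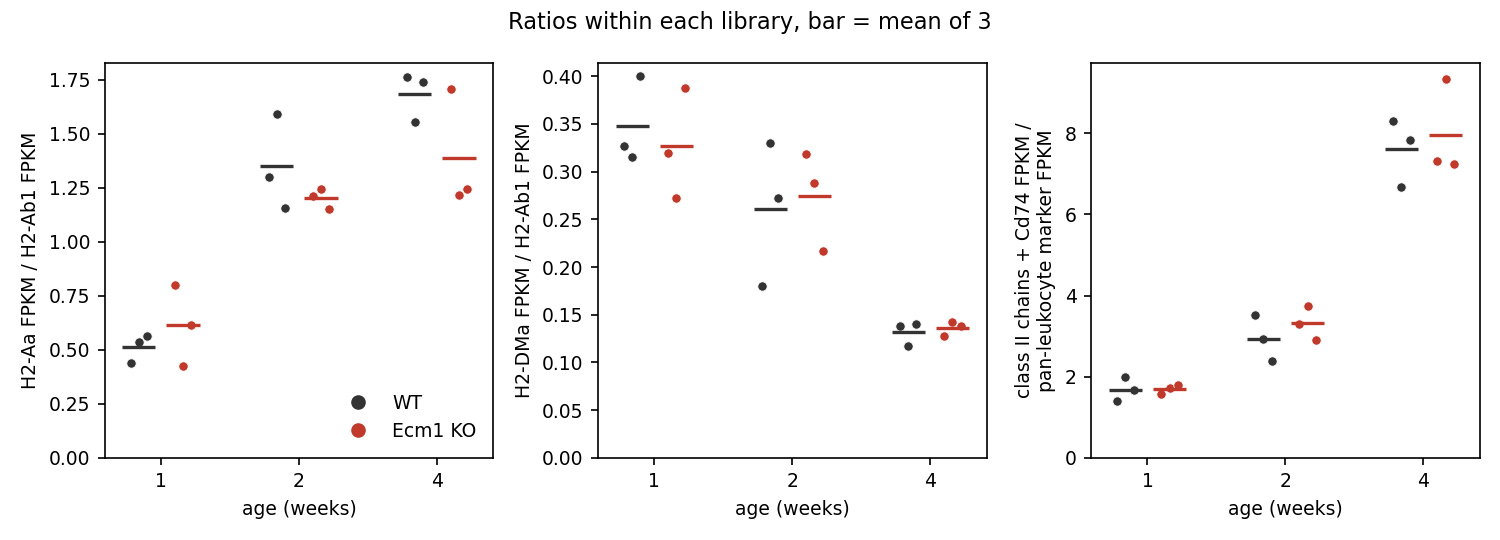
Ratios of FPKM within each library (vertical axes, linear from 0) against age in weeks, with 1 point per library and a bar at the mean of 3, WT dark and Ecm1 KO red. H2-Aa per H2-Ab1 is below 1 at 1 week and above 1 later, H2-DMa per H2-Ab1 is lowest at 4 weeks, and the class II sum per pan-leukocyte marker sum is highest at 4 weeks in both genotypes.

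The rest of the class II machinery did not rise as a block. Of 27 other genes listed for it, 23 were in the table and 21 were tested, and in WT from 1 to 4 weeks 6 rose and 3 fell, with a median of -0.11, where 30.5% of all genes rose and 31.8% fell. That share of risers is near the one of all genes. Those that rose were the protease Lgmn by 1.12 ± 0.20, the cathepsins Ctsb by 0.86 ± 0.08 and Ctsd by 0.42 ± 0.14, and the thiol reductase Ifi30 by 0.58 ± 0.09. The others were the ubiquitin ligases Marchf1 by 1.31 ± 0.31 and Marchf8 by 1.19 ± 0.11, which remove class II from the surface. The edgeR adjusted p-values of the 6 risers ran from 1.12e-07 for Marchf8 to 0.0162 for Ctsd. Several of these, Ctsb among them at 760 CPM in WT at 4 weeks, serve lysosomes in all cells and are not particular to class II.

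The genes that fell were the costimulatory receptor Cd40 by 2.11 ± 0.26, the H2-DM beta chain gene H2-DMb2 by 2.06 ± 0.44 and the Y box subunit Nfyb by 0.67 ± 0.16 on the log2 scale (edgeR adjusted p = 3.76e-06, 0.000739 and 0.0015). The subunits of the X box factor were near level from 1 to 4 weeks in WT and none was called: Rfx5 at -0.11 ± 0.16, Rfxap at -0.16 ± 0.15 and Rfxank at 0.13 ± 0.15 (edgeR adjusted p = 0.554, 0.369 and 0.447). Ctss, the protease best known for trimming the invariant chain, stood at 0.35 ± 0.26 (edgeR adjusted p = 0.252). In KO over the same ages 9 of the 21 rose and 3 fell (28.4% and 28.7% of all genes), Ctss among the risers at 1.08 ± 0.26 (edgeR adjusted p = 0.00192).

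H2-DMb1 and H2-DMb2 are near-identical copies, and counts of H2-DMb1 were fractional in 11 of 18 libraries, so reads shared between them may have been split. In WT from the youngest group to the oldest their sum was 23.1 ± 2.2, 23.2 ± 5.7 and 14.7 ± 3.5 CPM (SD, n = 3). The libraries at 4 weeks, at 11.5 to 18.4 CPM, were below those at 1 week and overlapped those at 2 weeks by a narrow margin. In KO the sum was 22.3 ± 2.5, 20.3 ± 4.7 and 26.3 ± 8.3 CPM. The counts of the 6 genes themselves were whole numbers in all 18 libraries. H2-Oa, a chain of the H2-DM inhibitor of B cells, and the beta chain gene H2-Eb2 were too low to test, H2-Eb2 with 20 counts over the 18 libraries.

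**Figure D4:**
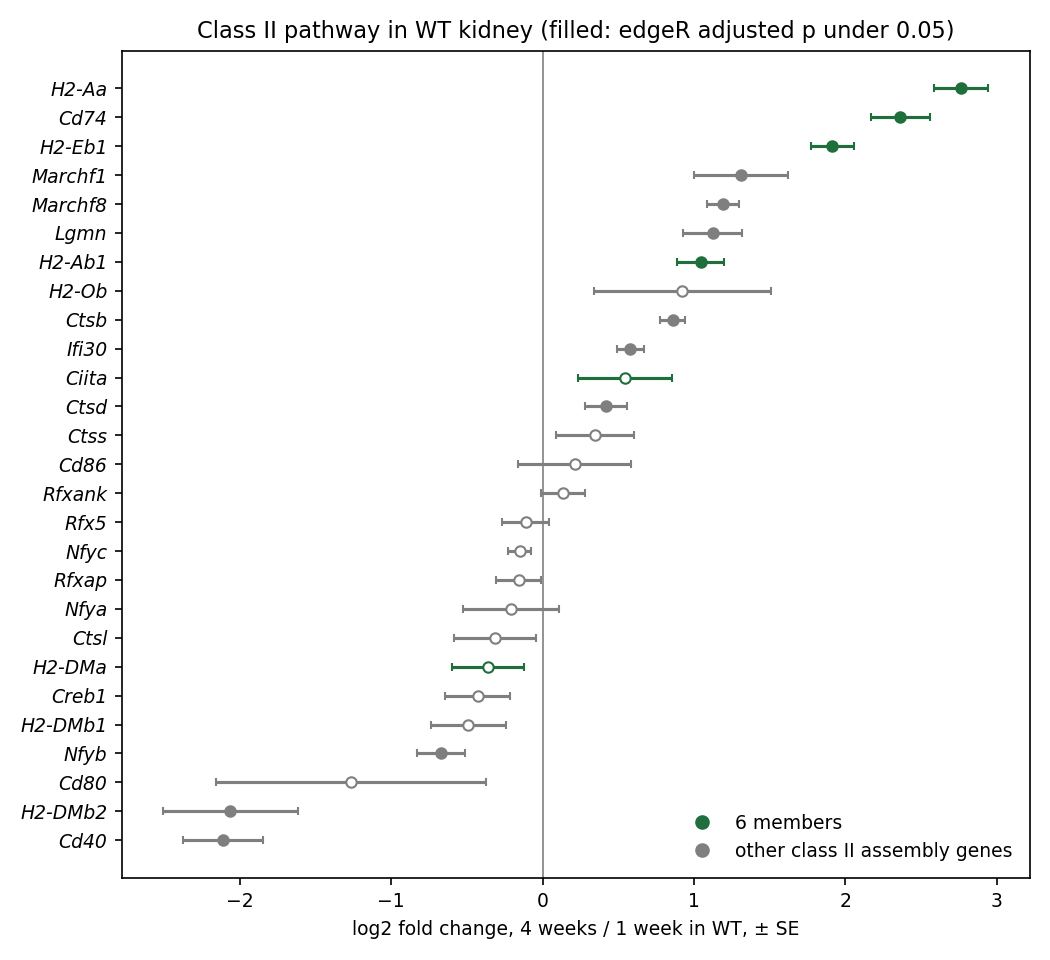
Log2 fold change ± SE from 1 to 4 weeks in WT (horizontal axis) for the 6 genes (green) and 21 other genes of class II assembly (grey), filled where the edgeR adjusted p was under 0.05. H2-Aa, Cd74 and H2-Eb1 head the order, and Cd40 and H2-DMb2 close it.

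Markers shared by white blood cells were looked at beside the class II genes. None of 10 pan-leukocyte genes was called in WT from 1 to 4 weeks by edgeR, and the median change was -0.30. Only Cd53, at -0.63 ± 0.28, had an unadjusted p under 0.05 (edgeR adjusted p = 0.0639). Their summed level in WT was 47.7 ± 6.1, 38.6 ± 8.4 and 41.2 ± 1.3 CPM (SD, n = 3) from the youngest to the oldest group. In KO 4 of the 10 rose from 2 to 4 weeks, beside 18.2% of all genes, with a median of 0.60: Itgb2 by 1.305 ± 0.350, Coro1a by 0.95 ± 0.23, Laptm5 by 0.65 ± 0.16 and Ptprc by 0.56 ± 0.15 (edgeR adjusted p = 0.00817, 0.0048, 0.00498 and 0.0092). These rises came in the step in which all 6 class II genes rose, and their part in it was not tested. From 1 to 4 weeks in KO Itgb2 rose by 1.13 ± 0.35 (edgeR adjusted p = 0.0109), 1 of 10 beside 28.4% of all genes, and the KO sums were 49.1 ± 5.0, 34.5 ± 1.9 and 54.5 ± 4.6 CPM (SD, n = 3). The summed FPKM of H2-Aa, H2-Ab1, H2-Eb1 and Cd74 per summed pan-leukocyte FPKM went from 1.40 to 1.98 at 1 week through 2.38 to 3.51 at 2 weeks to 6.69 to 8.31 at 4 weeks in WT, and from 1.57 to 1.79 through 2.92 to 3.75 to 7.24 to 9.33 in KO. The ages did not overlap in either genotype. Per unit of macrophage marker FPKM the same sum was 0.431 ± 0.063, 0.710 ± 0.034 and 1.99 ± 0.25 in WT. In whole tissue, fewer cells of a type and less RNA per cell cannot be told apart.

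Among 18 tested macrophage and monocyte markers in WT from 1 to 4 weeks, 4 rose and 5 fell, with a median of -0.19, both shares below the 30.5% and 31.8% of all genes. The growth factor receptor Csf1r rose by 0.67 ± 0.11, while the mannose receptor Mrc1 fell by 1.99 ± 0.18 on the log2 scale (edgeR adjusted p = 9.33e-05 and 8.96e-08). Of 13 dendritic cell markers 2 rose and 3 fell, with a median of -0.11, again below the 30.5% and 31.8% of all genes. The lectin Cd209a rose by 2.82 ± 0.53 and the integrin Itgax, which encodes CD11c, by 1.72 ± 0.49 (edgeR adjusted p = 0.000235 and 0.00643), from 0.180 to 1.32 CPM and from 0.431 to 1.45 CPM. Zbtb46, Fscn1 and Cd83 fell, the last 2 by 2.90 and 3.49 on the log2 scale (edgeR adjusted p = 4.72e-09 and 3.28e-07). Other cells of the young kidney can express such markers, and which cells carried the risers or the fallers was not tested.

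B cells also carry class II, but their markers were low. Of 12 listed, 8 were tested, none rose and 2 fell in WT from 1 to 4 weeks, where 31.8% of all genes fell: Cd79b by 1.69 ± 0.45 and Pax5 by 3.82 ± 1.19 on the log2 scale (edgeR adjusted p = 0.00412 and 0.0109). The summed level of the 12 was 12.2 to 16.6 CPM at 1 week and 5.34 to 9.31 CPM at 4 weeks in WT. Most T and NK cell markers were too low to test, with 4 of 16 tested and Cd3e at 0 in 3 libraries. Of the 4, none rose and 2 fell in WT from 1 to 4 weeks, where 31.8% of all genes fell. These were Lck by 1.79 ± 0.36 and Cd4 by 1.63 ± 0.43 on the log2 scale (edgeR adjusted p = 0.00046 and 0.00351). In KO 2 of the 4 fell as well, beside 28.7% of all genes. The part of each cell type in the class II rise was not tested.

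At the 2 younger ages no difference between the genotypes passed the test. At 1 week the 6 differences, KO over WT, ran from -0.14 ± 0.23 for H2-DMa to 0.20 ± 0.18 for H2-Aa, with 3 above 0. At 2 weeks they ran from 0.06 ± 0.14 for H2-Eb1 to 0.37 ± 0.24 for H2-DMa, with 6 above 0. None was called by edgeR or DESeq2 at either age, none had an unadjusted p under 0.05 and every edgeR adjusted p was 1, where 0.00677% of all genes were called by edgeR at each age, Ecm1 alone. Across all genes 196 at 1 week and 249 at 2 weeks had an unadjusted p under 0.05 in edgeR.

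At 4 weeks KO kidney held more class II RNA on average, and H2-Ab1 was the gene that passed the test. H2-Ab1 measured 41.3, 37.1 and 46.2 CPM in WT and 50.3, 73.3 and 65.9 CPM in KO, with every KO library above every WT library. It rose by 0.61 ± 0.15, 1.52 times, in KO against WT (edgeR adjusted p = 0.041). H2-Ab1 was 1 of 6 called, where 1.51% of all genes were called higher. The call is close to its threshold: without replicate 2 or 3 of KO the adjusted p was 0.15 and 0.148, and without replicate 1, 2 or 3 of WT it was 0.0932, 0.174 and 0.079. With only the 2 groups in the fit it was 0.155, and with sex as a covariate 0.0832. The difference stayed between 0.486 and 0.745 over the 17 alternatives, and DESeq2 called it (adjusted p = 0.00841).

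The other 5 genes were higher in KO on average without passing the test. H2-Aa was at 76.2 to 83.0 CPM in KO and 53.6 to 74.8 CPM in WT, with no overlap but a difference of 0.29 ± 0.16 (edgeR adjusted p = 0.414). H2-DMa was at 6.06, 10.02 and 8.59 CPM in KO, and its difference of 0.65 ± 0.24, the largest of the 6, had an edgeR adjusted p of 0.156. It passed only without KO replicate 1 (0.0494). H2-Eb1, Cd74 and Ciita differed by 0.33 ± 0.13, 0.37 ± 0.18 and 0.50 ± 0.31 (edgeR adjusted p = 0.202, 0.319 and 0.458), each with overlapping libraries. Cd74 was at 144.3, 209.7 and 134.3 CPM in KO, and KO replicate 2 was the highest KO library for all 6 genes. Without it the Cd74 difference was 0.145 (edgeR adjusted p = 0.781). The 6 differences had a median of 0.43, beside 0.0017 over all genes, and 2 of 6 genes had no overlap with KO higher, where 9.67% of all genes had none.

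**Figure D5:**
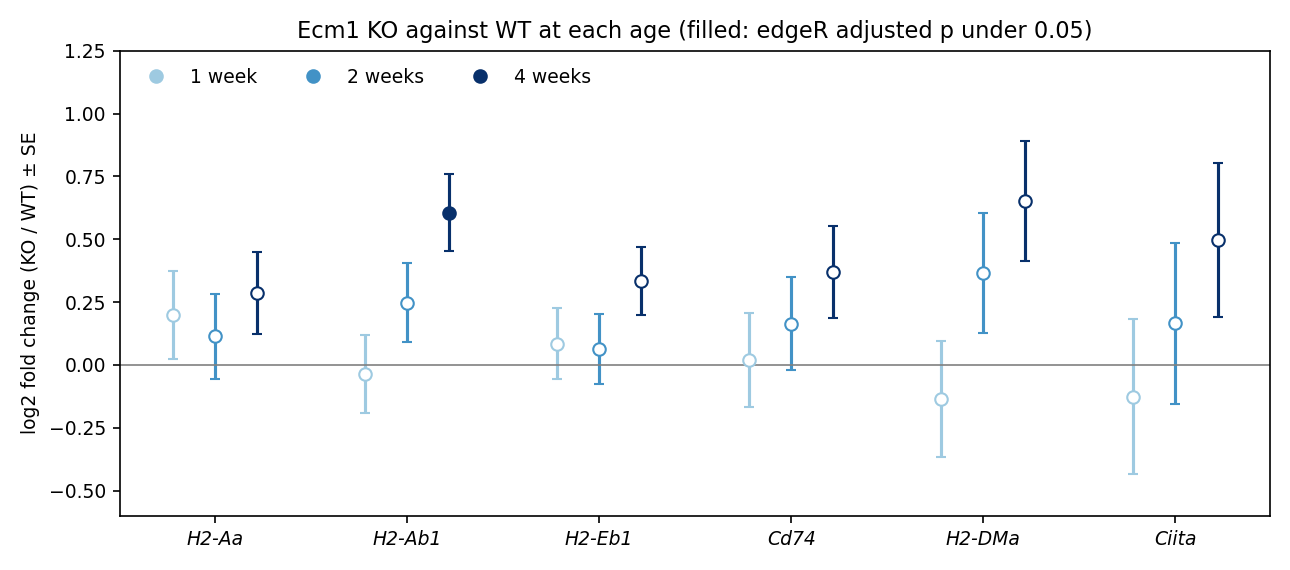
Log2 fold change ± SE of Ecm1 KO over WT (vertical axis) for each gene at 1, 2 and 4 weeks, light to dark blue, filled where the edgeR adjusted p was under 0.05. All 6 points at 4 weeks lie above 0, and H2-Ab1 at 0.61 is the filled one.

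Leukocyte markers were compared at the same age. All 10 pan-leukocyte genes were higher on average in KO at 4 weeks, with a median of 0.38 and none called by edgeR. Their sum was 39.9, 41.3 and 42.4 CPM in WT and 53.0, 59.8 and 50.9 CPM in KO, without overlap and with KO replicate 2 again the highest. The class II sum per pan-leukocyte FPKM overlapped between the genotypes at 4 weeks, at 7.61 ± 0.84 in WT and 7.96 ± 1.19 in KO (SD, n = 3). Macrophage markers overlapped, at 262.5 to 281.1 CPM in WT and 250.8 to 331.9 CPM in KO, and 1 of 18 was called lower, as were 1.72% of all genes: Csf1r, at 72.4 ± 11.6 CPM in WT and 49.6 ± 3.1 CPM in KO, fell by 0.54 ± 0.11 on the log2 scale (edgeR adjusted p = 0.0189). Dendritic cell markers, at 32.8 to 37.8 CPM in WT and 36.4 to 46.8 CPM in KO, and B cell markers, at 5.34 to 9.31 and 5.54 to 8.48 CPM, overlapped with none called. The part of these markers in the H2-Ab1 difference was not tested.

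None of the 21 other class II genes was called between genotypes at 4 weeks, with a median of 0.11 and 16 above 0. H2-DMb1 was at 0.82 ± 0.25 (edgeR adjusted p = 0.0877), Ctss at 0.72 ± 0.26 (0.145) and Lgmn at 0.47 ± 0.19 (0.217), while the X box subunit Rfx5 was at -0.11 ± 0.16 (0.811).

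Whether the rise with age differed by genotype was tested by the interaction of the 2. None of the 6 was called, for 1 to 4 weeks or for 2 to 4 weeks, by edgeR or DESeq2, where 0.0609% and 0.176% of all genes were called by edgeR. From 1 to 4 weeks H2-Ab1 rose by 1.04 ± 0.16 in WT and 1.69 ± 0.16 in KO, a difference of 0.64 ± 0.22 (edgeR adjusted p = 0.319, unadjusted p = 0.00937). H2-DMa differed by 0.79 ± 0.33 (edgeR adjusted p = 0.459, unadjusted p = 0.0312), and the other 4 by 0.09 to 0.62. From 2 to 4 weeks the 6 differences ran from 0.17 to 0.36, with no unadjusted p under 0.05. Averaged over the 3 ages, KO over WT ran from 0.16 for H2-Eb1 to 0.29 for H2-DMa with none called by edgeR or DESeq2, against 0.0338% of all genes in edgeR. H2-Ab1, at 0.27 ± 0.09 with an unadjusted p of 0.00754 (edgeR adjusted p = 0.346), and H2-DMa, with an unadjusted p of 0.0469 (edgeR adjusted p = 0.54), came nearest.

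Across the 18 libraries the log2 CPM of the chains and Cd74 ran together, with Pearson correlations of 0.85 to 0.98 over groups that differ in age. With the group means subtracted, the pair H2-Ab1 and H2-Eb1 kept 0.72 and H2-Aa and H2-Eb1 0.59, while H2-Ab1 and Cd74 had 0.19. Outside the 6, the genes with the highest mean correlation to them over the 18 libraries included Syt12 (0.82), Sbk1 (0.81) and Ctsb (0.81), with Marchf1 (0.80) also among the top 10. With group means subtracted the highest were Gm1673 (0.56), Aimp2 (0.55) and Tmem171 (0.54). All these correlations are descriptions over libraries that share age groups and scaling.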

How the data were processed

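Total RNA of mouse kidney was extracted with Trizol, mRNA was captured on beads, and sequencing used an Illumina NovaSeq X Plus, per the labels' protocols. The deposited table pairs an estimated count with an FPKM value for each gene and library, per the file headers. RSEM, StringTie (1.3.1), HISAT2 (2.1.0), Bowtie2 and fastp are listed in the submitters' processing notes, without order or role. Build, annotation and strand setting are not given in the sources used. Between 6.86% and 8.44% of the counts of a library were not whole, and all were rounded before testing.

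Counts were fitted with edgeR 4.0.16 in R 4.3.3 by the quasi-likelihood F test with TMM scaling, its default filter by group and 1 model over 6 group means (12 residual degrees of freedom). Contrasts were the steps in age within each genotype, KO against WT at each age and over the ages, and their interaction. P-values were adjusted by Benjamini-Hochberg over the 14774 genes tested. Genes with an adjusted p under 0.05 count as called, and only these are said to rise or fall. The fit was tested on simulated data. CPM used TMM scaling. FPKM served to compare genes, and in alternatives limma 3.58.1 tested log2(FPKM + 1), on which fold changes of low genes are understated. DESeq2 1.42.0, other scalings, no filter, the compared groups alone, sex as a covariate, a replicate block and leaving out each library were further alternatives.

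The 6 genes, the 13 other gene lists and the tests were chosen with earlier results of these data known. Named genes are the 6, any tested gene of the class II assembly list, up to 4 genes with the smallest p from every other list in WT from 1 to 4 weeks and in KO against WT at 4 weeks, and those with the highest mean correlation with the 6. Cd53, Cd3e, Itgb2, Coro1a, Laptm5 and Ptprc, and list members named because they are called, were added after their values were seen where they fall outside that rule. Same-numbered WT and KO libraries deviated together across genes at 2 weeks (correlations of 0.68, 0.31 and 0.46). WT library 2 correlated no less with KO library 3 (0.35), so beyond the libraries numbered 1 the numbers need not pair the libraries. At 1 and 4 weeks the same-numbered correlations ran from -0.04 to 0.18. Positions come from GENCODE M21 (GRCm38) and promoters from RefSeq (GRCm38.p6). Some genes that these rules name are not reported here. Sequences printed cover 3 of the 6 genes.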

Additional observations from a re-analysis of the deposited data

How the results depend on the processing

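Of the 12 counts of called genes, 9 stayed within 1.5 times under every alternative run. A count does not show which genes were called or in which direction. In WT from 1 to 4 weeks, library totals and the FPKM alternatives lost H2-Ab1 and called H2-DMa lower. In WT from 1 to 2 weeks, those alternatives called H2-Ab1 lower, and Cd74 was called in 7 of 18 alternatives. For WT from 1 to 2 weeks the count was 3, and leaving out 1 library gave 1 to 2. For KO from 1 to 2 weeks it was 2, and became 1 with limma on log2(FPKM + 1), with or without a filter, on log2(FPKM + 0.1), with sex as a covariate and, in an alternative chosen after seeing the data, with library totals as the only scaling. Leaving out 1 KO library gave 1 to 3. For KO against WT at 4 weeks it was 1, became 0 with only the compared groups in the fit or with sex as a covariate, and ran from 0 to 2 with 1 library left out. Over all genes edgeR called 477 at 4 weeks, DESeq2 935, the fit with sex 266 and the fit of the compared groups alone 2. Without KO replicate 1 it called 1201, and without WT replicate 2 it called 89. The cause was not tested.

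With the replicate number as a block, the 12 counts were those of the fit without it (1 of 6 for KO against WT at 4 weeks, with H2-Ab1 at an edgeR adjusted p of 0.0443), while over all genes 931 were called at 4 weeks in place of 477. The block changed no call among the 6 genes.

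Changes of sign among the 6 genes concerned values that were not called under either setting. On log2(FPKM + 1), with or without a filter, on log2(FPKM + 0.1) and with library totals, H2-DMa in WT from 2 to 4 weeks was -0.016, -0.017 and -0.072, Ciita in WT from 1 to 4 weeks -0.093, -0.259 and -0.163, and H2-DMa in KO from 1 to 4 weeks -0.143, -0.169 and -0.163. With sex as a covariate H2-Ab1 in KO from 1 to 2 weeks was 0.003 and Ciita in KO against WT at 1 week 0.073. With 1 library left out, H2-Ab1 in KO from 1 to 2 weeks ran from -0.128 to 0.05. For KO against WT at 1 week Cd74 then ran from -0.138 to 0.101, Ciita from -0.324 to 0.093, H2-Aa from -0.028 to 0.328 and H2-Ab1 from -0.142 to 0.037, and at 2 weeks Ciita from -0.1 to 0.339 and H2-Eb1 from -0.022 to 0.168. The interaction of H2-Aa for 1 to 4 weeks ran from -0.044 to 0.312, and that of Cd74 for 2 to 4 weeks from -0.018 to 0.349. Without both libraries numbered 1 at 2 weeks, an alternative chosen after seeing the data, Ciita in KO against WT at 2 weeks was -0.045. Ciita rests on 12 to 59 counts per library, so counting error limits it. With 3 libraries a group, differences between genotypes about as small as their SE were not detectable.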

Other observations

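Of 19 tested genes of MHC class I presentation 6 rose and none fell in WT from 1 to 4 weeks, with a median of 0.38. That share of risers is near the 30.5% of all genes, while 31.8% of all genes fell. The nonclassical genes H2-T23 and H2-T22 led, by 2.26 ± 0.15 and 2.23 ± 0.12 (edgeR adjusted p = 4.55e-09 and 9.45e-10), from 18.8 to 90.3 CPM and from 21.1 to 98.9 CPM on average. The classical chain gene H2-K1 rose by 1.20 ± 0.13 and H2-D1 by 0.93 ± 0.12 (edgeR adjusted p = 5.09e-07 and 5.94e-06). In KO kidney 13 of the 19 rose, beside 28.4% of all genes. Between genotypes at 4 weeks 1 of the 19 was called lower, beside 1.72% of all genes: H2-T22, which fell by 0.49 ± 0.12 on the log2 scale in KO (edgeR adjusted p = 0.0339), in the direction opposite to H2-Ab1. Most of the list lay the other way: 17 of the 19 were higher on average in KO, with a median of 0.34 and none called higher. Their summed level at 4 weeks was 1077 to 1144 CPM in WT and 1247 to 1526 CPM in KO, without overlap. Class I genes are near-identical to one another in places, so counts split between them are uncertain.

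Interferon gamma is a known inducer of Ciita. Of 24 tested genes of its signalling and targets, 16 rose and 2 fell in WT from 1 to 4 weeks, with a median of 0.93, where 30.5% of all genes rose and 31.8% fell. Among them the guanylate-binding protein Gbp6 rose by 2.35 ± 0.50 and the GTPase Tgtp2 by 2.42 ± 0.48 (edgeR adjusted p = 0.000629 and 0.000337). Ifng itself was too low to test, with 9 counts over the 18 libraries and 0 in 14 of them. In KO against WT at 4 weeks none of the 24 was called by edgeR. Only Cxcl10, at 1.21 ± 0.43, had an unadjusted p under 0.05 (edgeR adjusted p = 0.141). The list's median there was 0.01, beside 0.43 for the 6 class II genes, of which 1 was called. Any part of interferon gamma in the class II RNA, with age or by genotype, was not tested.

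Of the 5 tested genes whose proteins bind class II or its invariant chain, 3 fell and 1 rose in WT from 1 to 4 weeks, where 31.8% of all genes fell and 30.5% rose. Cd44, a partner of Cd74 at the cell surface, fell by 2.17 ± 0.41, the coreceptor Cd4 fell by 1.63 ± 0.43 and the chemokine receptor Cxcr4 fell by 1.08 ± 0.37 on the log2 scale (edgeR adjusted p = 0.000259, 0.00351 and 0.0179). Mif, the cytokine that binds Cd74, rose by 0.76 ± 0.14 (edgeR adjusted p = 0.000153).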
